A study of Mus musculus with 9 samples.

Results

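The primed mEpiSCs of this series were compared between passage 15 (P15) and passage 5 (P5), across all genes, to describe what changed while the cells were kept in the primed state. The comparison took in 4 of the 9 RNA-seq libraries, the 2 primed libraries of P5 and the 2 of P15, as named by the sample titles, and 15957 of the 54232 genes in the deposited count table had enough counts for the test. The primed cells had been converted from naïve mESCs by culture in medium with Fgf2 and activin A (F/A medium) on feeder cells, and were grown for 5 passages and, for P15, 10 more. All naïve and primed libraries came from cells of the C57 x CBA strain label, which the study derived from blastocysts of Oct4-GFP mice carrying a GFP reporter under the distal *Oct4* promoter. The naïve mESCs, used here for reference at the same passages with 2 libraries each, were kept in serum/LIF (S/L) medium on the same kind of feeders. The feeders were MEFs, embryonic fibroblasts whose division had been stopped with mitomycin C, and 1 MEF library served as a reference for feeder RNA. No genotype or drug differed between P5 and P15. The study speaks of biological repeats, but neither it nor the labels say whether the 2 libraries of a group came from separate cultures, so that p-values measure the spread between these libraries, which may be technical. Passage number, days in culture and any difference in the day of harvest cannot be told apart in this design.

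Mouse pluripotent cells exist in a naïve state, which resembles the epiblast of the blastocyst and depends on LIF, and in a primed state, which resembles the epithelial epiblast after implantation and depends on FGF and activin signalling. Primed cells keep *Pou5f1* (Oct4), *Sox2* and *Nanog*, silence naïve factors such as *Esrrb* and *Zfp42*, and raise the DNA methylase *Dnmt3b*. They can start genes of the primitive streak or of the anterior neural plate, the regions where mesendoderm and brain first form. In these cells Nodal and activin act through Smad proteins and switch on their own feedback inhibitors, the Lefty proteins.

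Total counts were between 15918658 and 17775081 in the 4 primed libraries, and 25646547 in MEFs. Levels are given as CPM, read counts scaled by library size with TMM factors, a scaling which corrects for differences in RNA composition, and they compare a gene between libraries and not genes of different length with each other. A gene with no count in a primed library could still be present at 3 counts, 0.149 to 0.172 CPM, and this limit covers counting error only. Changes are log2 fold changes of P15 over P5 ± SE from edgeR's quasi-likelihood test, and "rose" and "fell" are used where the p-value adjusted by Benjamini-Hochberg was under 0.01. The biological coefficient of variation between the libraries of a group was 3.94%, so that small differences passed this threshold, and a count of genes that also moved at least 2-fold is given throughout.

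Markers of naïve cells were lower and most markers of feeder fibroblasts higher at P15 than at P5 in the primed libraries. Of the naïve state genes listed here, 17 had under 1 CPM in MEFs and at least 10 CPM in naïve cells, and at P5 the median of their level in primed cells was 11.6% and 11.99% of the naïve level in the 2 libraries. At P15 this median was 0.937% and 0.719%. Single markers ranged from 5.24% (*Nr0b1*) to 75.6% (*Sox15*) at P5 and from 0% (*Nr0b1* and *Ooep*, each in 1 library) to 15.3% (*Sox15*) at P15. Of 30 fibroblast markers, 24 rose from P5 to P15, and their summed level was 6401 to 6548 CPM at P5, 15059 to 15606 CPM at P15 and 83737 CPM in MEFs. None of the 30 was at 0 counts in a primed library. Over the 29 with at least 10 CPM in MEFs, the median ratio to MEFs was 15.2% and 15.4% at P5 and 25.02% and 25.4% at P15, whereas the marker with the lowest ratio gave 1.63% to 2.69%. The contractile fibroblast gene *Acta2* went the other way, with 244 and 229 CPM at P5 and 122 and 114 CPM at P15. *Dcn* (decorin), another of these markers, was at 465 and 457 CPM at P5 and 720.04 and 749 CPM at P15 and at 211 CPM in MEFs, so that primed libraries of both passages were above MEFs. In bulk RNA, fewer cells of a type and less RNA of that type per cell cannot be told apart, and neither can RNA of naïve cells or feeders and expression of the same genes by primed cells. For several gene groups below, the count with a naïve or feeder share taken off is given beside the count from the deposited values.

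**Figure D1:**
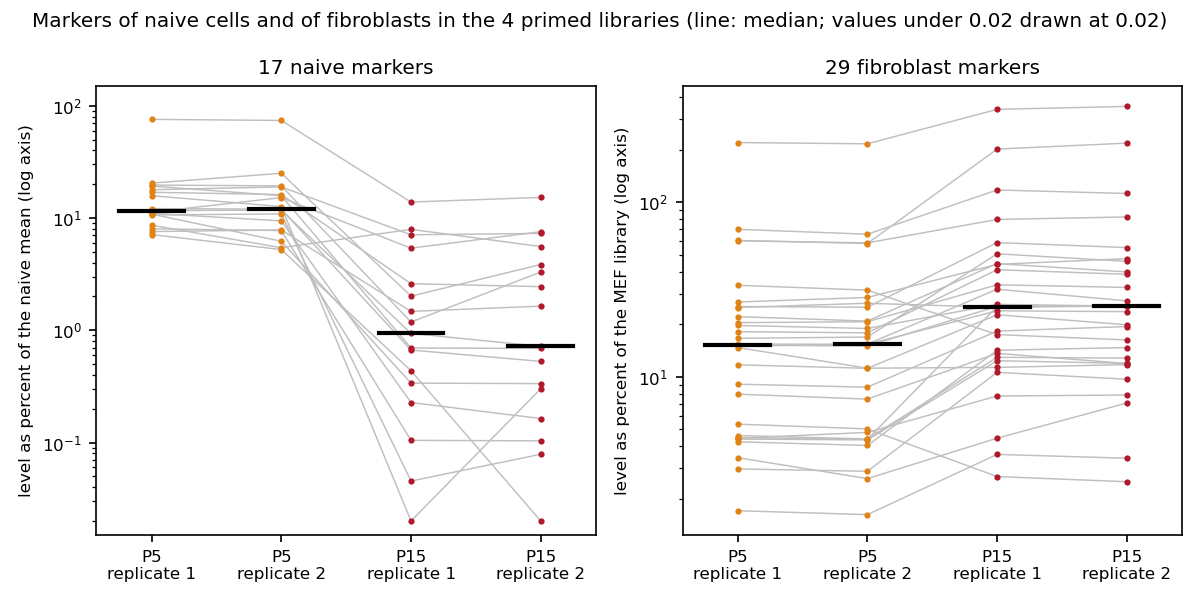
Level of each naïve state marker as a percentage of its mean naïve level, and of each feeder fibroblast marker as a percentage of its MEF level, in the 4 primed libraries (1 point per gene and library, log axis, values under 0.02 drawn at 0.02, bars at the medians, grey lines joining the values of a gene). The naïve markers have medians of 11.6% and 11.99% at P5 and of 0.937% and 0.719% at P15, and the feeder markers medians of 15.2% and 15.4% at P5 and of 25.02% and 25.4% at P15.

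Between P5 and P15, 7525 genes (47.2% of those tested) differed at an adjusted p under 0.01, 3883 of them higher (24.3%) and 3642 lower (22.8%) at P15. At least 2-fold changes were found for 1850 genes, 11.6% of those tested, with 508 higher (3.18%) and 1342 lower (8.41%), or 2.64 lower for each higher. The counts of every gene list below are to be read against these shares of all genes. The lower genes were mostly of low level, since only 347 of them had a mean of at least 10 CPM at P5, against 246 of the higher genes at P15. Changes of 8-fold or more were found for 256 lower and 32 higher genes. The P5 and P15 libraries did not overlap for any of the 1850 genes, as held for 12469 genes in all, 78.1% of those tested. The genes nearest to the 2-fold limit were *Stmn2* (1.001 ± 0.05) just inside it and *Firre* (-0.9997 ± 0.09) just outside it. With library size alone as the scale, the median over all genes was -0.13 instead of 0, and 385 genes were at least 2-fold higher and 1606 lower.

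**Figure D2:**
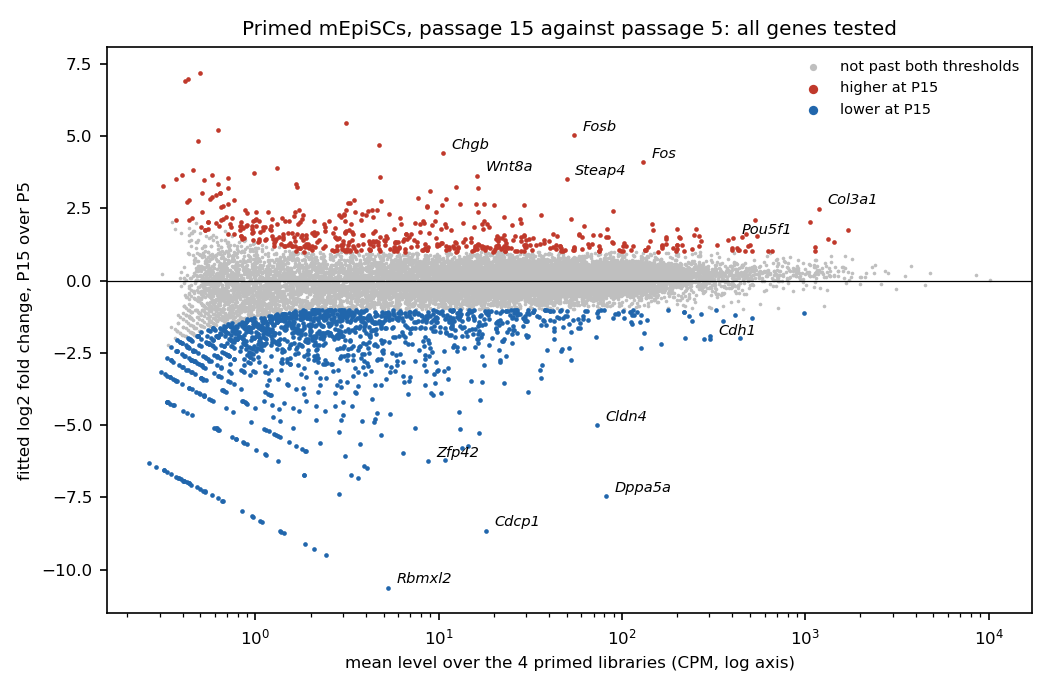
Log2 fold change of P15 over P5 against the mean level over the 4 primed libraries (CPM, log axis) for the 15957 genes tested in primed cells, with the genes that passed an adjusted p of 0.01 and a 2-fold change in colour. The 1342 lower genes reach larger changes than the 508 higher ones, with 256 against 32 beyond 8-fold.

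The largest falls among genes with at least 10 CPM at P5 were in genes of the naïve state, of epithelia and of the germline. *Cdcp1*, a transmembrane glycoprotein of epithelial cells, had 733 and 648 counts at P5 and 3 and 0 at P15, a ratio of 423 (exact 95% counting interval 144 to 2052). *Rbmxl2*, an RNA-binding protein of male germ cells, had 200 and 204 counts at P5 and 0 and 0 at P15, and was at least 61.7-fold lower against a floor of 3 counts per library. *Dppa5a*, a marker of naïve cells, was at 162 and 165 CPM at P5 and 0.689 and 1.19 CPM at P15 (-7.46 ± 0.12, adjusted p = 3.5e-26). These genes thus ended at or near the limit of detection. *Zfp42* (Rex1, -6.23 ± 0.25), *Dppa4* (-5.96 ± 0.29), *Tdh*, which makes threonine dehydrogenase (-5.73 ± 0.20), and *Dnmt3l*, the cofactor of de novo DNA methylation (-5.25 ± 0.19), fell from between 12.6 and 32.2 CPM to under 1 CPM. So did 4 further genes, *AU018091* (-6.22 ± 0.24), the epithelial clathrin adaptor subunit *Ap1m2* (-5.78 ± 0.21), the epithelial trafficking GTPase *Rab25* (-5.12 ± 0.19) and the epithelial surface antigen *Gpa33* (-5.09 ± 0.24). The tight junction gene *Cldn4* completed this set, with 141 and 142 CPM at P5 and 4.53 and 4.43 CPM at P15 (-5.01 ± 0.09, adjusted p = 1.7e-25). All 12 were at under 1 CPM in MEFs. In all, 38 genes had at least 10 counts in both P5 libraries and none in either P15 library, and 3 genes the reverse.

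The largest rises were in immediate early genes, in a Wnt ligand, and in genes of which some had a high and some a low level in MEFs. *Fosb* was at 3.13 and 3.27 CPM at P5 and 103 and 111 CPM at P15 (5.03 ± 0.10, adjusted p = 2.5e-24). *Fos* was at 14.1 and 14.3 CPM at P5 and 236 and 256 CPM at P15 (4.09 ± 0.07, adjusted p = 1.6e-25). Both encode subunits of the AP-1 transcription factor, and their P15 levels were above the MEF levels of 8.55 CPM and 53.9 CPM. *Wnt8a*, a ligand of the primitive streak, was at 2.44 and 2.27 CPM at P5 and 30.99 and 28.9 CPM at P15 (3.63 ± 0.14) and had no count in MEFs. *Chgb* (chromogranin B, a protein of secretory granules, 4.42 ± 0.20), *Steap4* (a metalloreductase, 3.52 ± 0.09) and *Lzts1* (3.24 ± 0.17) were at 0.723, 0.766 and 1.02 CPM in MEFs, below all 4 primed libraries. *Mup6* (2.64 ± 0.15) had no count in MEFs, but belongs to the major urinary proteins, whose near-identical copies can share reads. *Ednrb*, the endothelin B receptor, was at 1.44 and 2.27 CPM at P5 and 15.9 and 16.2 CPM at P15 (3.09 ± 0.18) and at 16.7 CPM in MEFs. The other 4 of the 12, *Col14a1* (3.19 ± 0.14), *Epha3* (2.86 ± 0.18), *Lrrc17* (2.81 ± 0.15) and *Fibin* (2.67 ± 0.12), were at 147 to 462 CPM in MEFs and at 13.6 to 30.6 CPM at P15. Over all genes, 171 of the 508 at least 2-fold higher genes (33.7%) were higher in MEFs than in every primed library, close to the 34.6% of all genes tested.

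**Figure D3:**
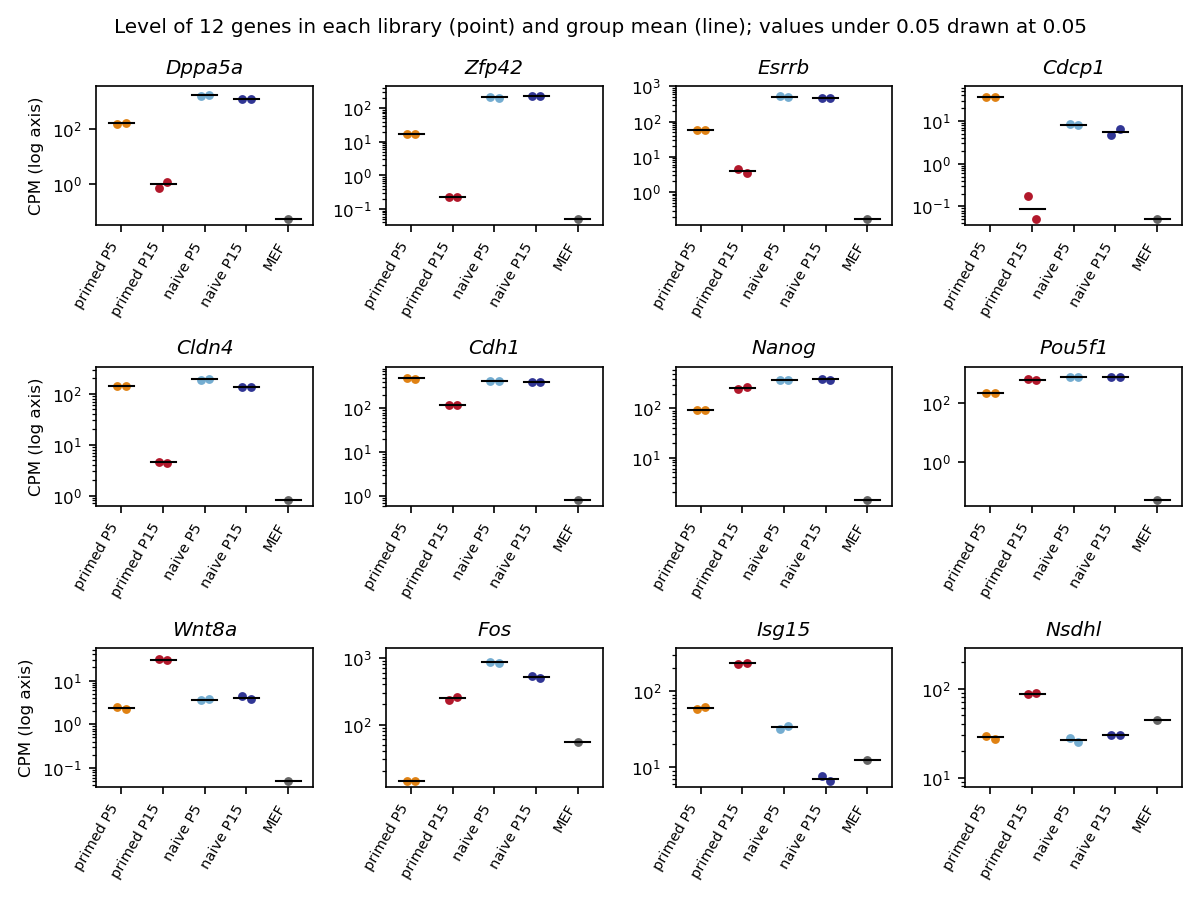
CPM (log axis, values under 0.05 drawn at 0.05) of 12 genes in each of the 9 libraries, with 1 point per library and a line at the mean of each group (primed P5, primed P15, naïve P5, naïve P15 and MEF). In primed cells *Dppa5a*, *Zfp42*, *Esrrb*, *Cdcp1*, *Cldn4* and *Cdh1* are lower at P15 in both libraries, and *Nanog*, *Pou5f1*, *Wnt8a*, *Fos*, *Isg15* and *Nsdhl* are higher.

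Genes of the naïve state fell as a group, whereas the factors shared by both states moved apart. Of 26 naïve state genes tested, 20 fell and 2 rose, 16 of them at least 2-fold lower and 1 at least 2-fold higher, with a median of -2.36 against 0 over all genes. *Esrrb*, an orphan nuclear receptor of the naïve network, was at 56.9 and 57.7 CPM at P5 and 4.59 and 3.52 CPM at P15 (-3.85 ± 0.11), and its level in naïve cells at P5 was 515 ± 17.1 CPM (SD, n = 2). *Tfcp2l1* (-2.75 ± 0.11) and *Nr0b1* (-4.82 ± 0.44) fell as well. *Klf2* fell by less (-0.51 ± 0.09), a direction that turned (11.17) with the naïve share taken off, when its P5 counts fell to 0. *Klf4* did not pass the test, with 46.2 and 49.6 CPM at P5 and 52.05 and 55.8 CPM at P15. Both Klf genes were higher in MEFs than at P15. The only member at least 2-fold higher was *Nanog*, which was at 92.6 and 93.7 CPM at P5 and 246 and 266 CPM at P15 (1.43 ± 0.05, adjusted p = 4.7e-18). With the naïve share of RNA taken off each primed library, an alternative chosen after seeing the data in which these markers themselves set the share, 17 of the list were still tested, of which 5 were at least 2-fold lower and 4 higher.

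Of 16 pluripotency factors used in both states, 5 rose and 8 fell, with 3 in each direction at least 2-fold (median -0.19). *Pou5f1*, which encodes Oct4, was at 211 and 211 CPM at P5 and 612 and 583 CPM at P15 (1.47 ± 0.05, adjusted p = 1.3e-19). *Tdgf1*, the Nodal coreceptor Cripto, was at 229 and 236 CPM at P5 and 667 and 682 CPM at P15 (1.51 ± 0.05). *L1td1*, an RNA-binding protein of pluripotent cells, was at 150.5 and 147 CPM at P5 and 377 and 401 CPM at P15 (1.35 ± 0.05). These 3 rose together with *Nanog*, and none of the 4 was above 1.36 CPM in MEFs. *Sox2* was at 161 and 165 CPM at P5 and 144 and 147 CPM at P15 (-0.20 ± 0.05), and its change was 0.12 with the naïve share taken off. *Dppa2* (-4.35 ± 0.33) and its partner *Dppa4*, which open chromatin of early embryonic genes, fell with *Dnmt3l*. *Sall4* and *Lin28b* did not pass the test.

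**Figure D4:**
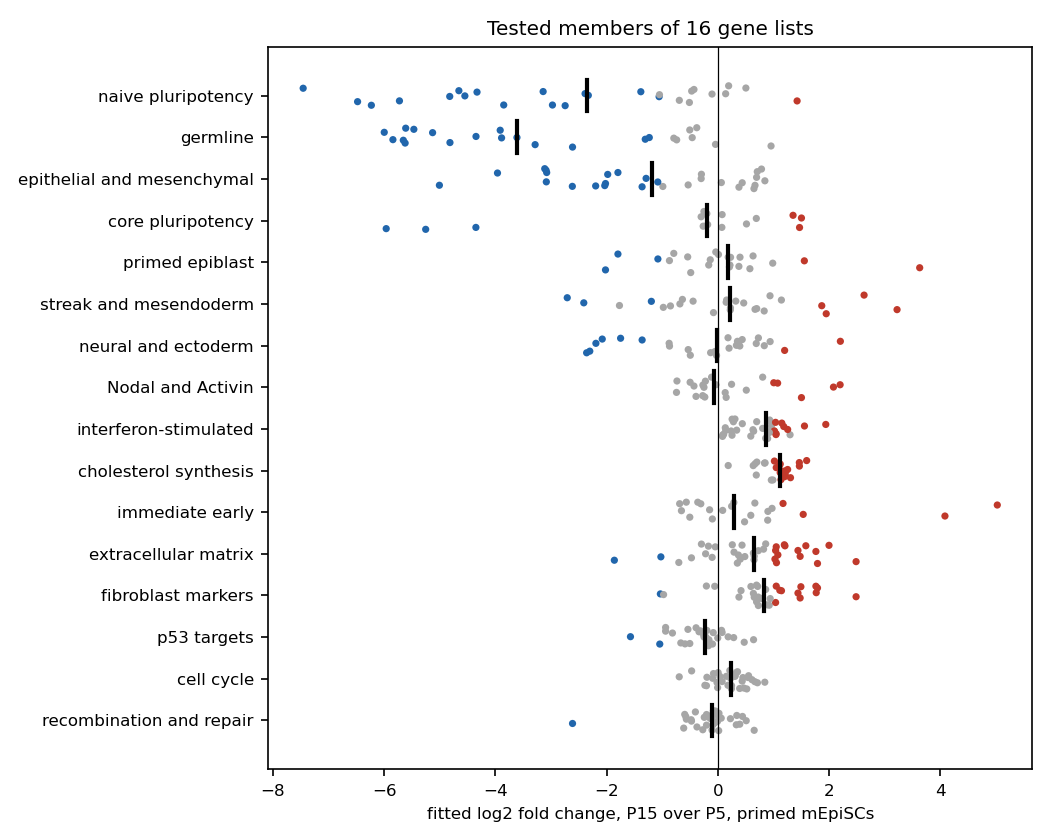
Log2 fold change of P15 over P5 of every tested member of 16 gene lists in primed cells (1 point per gene, bar at the median of the list, in red or blue where the gene was at least 2-fold higher or lower and past the threshold). The cholesterol and interferon lists lie above 0 with medians of 1.11 and 0.86, and the germline, naïve and epithelial lists below it with medians of -3.61, -2.36 and -1.18.

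Genes of the germline fell without exception among those that passed the test. Of 23 germline and meiotic genes tested, 19 fell, 16 of them at least 2-fold, and the median was -3.61. *Rhox5*, an X-linked homeobox gene of reproductive tissue, was at 17.9 and 16.1 CPM at P5 and 1.03 and 1.31 CPM at P15 (-3.89 ± 0.19). *Stag3*, a meiotic cohesin subunit, was at 11.8 and 11.2 CPM at P5 and 0.861 and 1.53 CPM at P15 (-3.29 ± 0.22). *Tdrd12*, of the piRNA pathway, was at 8.25 and 9.71 CPM at P5 and 0.746 and 0.738 CPM at P15 (-3.61 ± 0.25). The synaptonemal complex gene *Sycp3* had 36 and 48 counts at P5 and 1 and 0 at P15, a ratio of 77.1 (exact counting interval 13.5 to 3082). *Mael*, a repressor of transposons in germ cells, had 34 and 31 counts at P5 and 0 and 1 at P15, a ratio of 59.7 (10.3 to 2393). The summed level of the list was 151 to 152 CPM in primed cells at P5, 58.1 to 59.8 CPM at P15 and 354 to 376 CPM in naïve cells, so that the sum was highest in naïve cells, and 2 of the 23 genes had a higher mean in primed than in naïve libraries. With the naïve share taken off, 18 members were tested and 10 were at least 2-fold lower.

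The letters CACGTG, an E-box that Max and its partners bind and that is known from promoters of germline genes, were searched on both strands of promoter windows of 300 bases, from 250 before to 50 after the transcription start (RefSeq, build GRCm38.p6). They were present in 9 of 19 germline promoters (47.4%), against 8.09% of all promoters. Of the promoters of the genes tested 11.3% held them, close to the 11.4% for genes at least 2-fold lower. The windows of *Sycp3* (chr10:88459337-88459636, plus strand) and *Mael* (chr1:166238695-166238994, minus strand) are shown as examples of this group, 5′ to 3′, with the match in capitals. A match is a description of the sequence and not a site of binding.
Sycp3: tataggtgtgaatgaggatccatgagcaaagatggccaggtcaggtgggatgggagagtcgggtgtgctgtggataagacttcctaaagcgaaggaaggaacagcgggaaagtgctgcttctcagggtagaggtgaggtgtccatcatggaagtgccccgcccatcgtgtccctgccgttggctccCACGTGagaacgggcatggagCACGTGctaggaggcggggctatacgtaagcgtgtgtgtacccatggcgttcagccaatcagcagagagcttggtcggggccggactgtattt
Mael: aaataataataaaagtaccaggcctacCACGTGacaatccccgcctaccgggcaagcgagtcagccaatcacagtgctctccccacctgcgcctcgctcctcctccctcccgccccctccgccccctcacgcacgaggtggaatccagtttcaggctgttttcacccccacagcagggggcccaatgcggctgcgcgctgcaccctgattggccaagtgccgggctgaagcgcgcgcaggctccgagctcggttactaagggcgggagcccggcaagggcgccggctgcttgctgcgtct

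Genes of epithelial adhesion fell and several genes of mesenchymal cells rose. Of 28 genes of both kinds, 19 fell and 8 rose, with 15 at least 2-fold lower and none at least 2-fold higher (median -1.18). *Cdh1*, which encodes E-cadherin, was at 488 and 474 CPM at P5 and 121 and 119 CPM at P15 (-2.03 ± 0.05, adjusted p = 3.4e-22). The keratins that form the filaments of simple epithelia fell by a similar factor, with *Krt8* at 702 and 695 CPM at P5 and 184 and 178 CPM at P15 (-1.98 ± 0.05). *Krt18* (-2.02 ± 0.05) and *Krt19* (-2.20 ± 0.06) changed alike. The tight junction genes *Cldn7* (-3.09 ± 0.09), *Cldn3* (-3.08 ± 0.16), *Cldn6* (-1.80 ± 0.06) and *Ocln* (-3.96 ± 0.19) fell, and so did the epithelial surface protein gene *Epcam* (-0.99 ± 0.05). The transcription factors that maintain epithelia, *Grhl2* (-3.11 ± 0.16) and *Ovol2* (-3.08 ± 0.31), and the splicing factor *Esrp1* (-1.36 ± 0.08) were also lower at P15.

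Among the mesenchymal members, *Vim* (vimentin, 0.85 ± 0.04), *Zeb1* (0.79 ± 0.07) and *Snai1* (0.67 ± 0.09), both repressors of epithelial genes, and *Cdh2* (N-cadherin, 0.44 ± 0.06) rose, each by less than 2-fold. Their MEF levels were 2923 CPM, 77.7 CPM, 37.98 CPM and 134 CPM, above their means at P15. With the median feeder share taken off, their changes were 1.12, 1.01, 0.84 and 0.54. With the naïve share taken off, 16 of the 28 genes were at least 2-fold lower, and among the 18 members with a higher mean in primed than in naïve libraries 10 were. *Cdh1* was at 425 ± 0.639 CPM in naïve cells at P5 and *Cldn4* at 194 ± 3.98 CPM (SD, n = 2), close to or above their primed levels at P5. *Krt8* was at 59.97 ± 1.47 CPM and *Krt19* at 21.6 ± 0.38 CPM in naïve cells at P5, below their primed levels at that passage.

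The E-box CAGGTG, which Zeb and Snail repressors recognise and which was searched on both strands, was present in 11 of 17 promoters of this list (64.7%), in 34.7% of the promoters of all genes at least 2-fold lower and in 22.6% of all promoters. The windows of *Cldn4* (chr5:134946885-134947184, minus strand) and *Krt8* (chr15:102004293-102004592, minus strand) are printed as 2 of the strongly expressed genes that fell, with the match in capitals. The palindrome AACCGGTT of Grainyhead-like factors was in none of the 17, and in 0.174% of all promoters.
Cldn4: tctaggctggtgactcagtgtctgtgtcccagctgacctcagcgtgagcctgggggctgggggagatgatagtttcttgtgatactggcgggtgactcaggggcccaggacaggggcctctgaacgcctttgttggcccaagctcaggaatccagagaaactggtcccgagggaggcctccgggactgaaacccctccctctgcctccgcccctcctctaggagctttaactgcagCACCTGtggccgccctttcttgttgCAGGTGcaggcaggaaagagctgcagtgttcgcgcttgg
Krt8: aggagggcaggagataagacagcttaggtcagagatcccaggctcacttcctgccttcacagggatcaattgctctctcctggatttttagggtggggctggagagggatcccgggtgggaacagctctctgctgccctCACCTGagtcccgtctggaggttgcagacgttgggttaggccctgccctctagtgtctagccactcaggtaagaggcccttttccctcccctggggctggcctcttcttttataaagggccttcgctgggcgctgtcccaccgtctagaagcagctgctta

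Genes of the post-implantation epiblast and its first lineages moved in both directions. Of 23 epiblast and primed state genes, 10 rose and 7 fell, with 2 at least 2-fold higher and 3 lower (median 0.19). Among all genes tested, 24.3% rose and 22.8% fell, with 3.18% at least 2-fold higher and 8.41% lower. *Fgf5*, the classic epiblast marker, was at 120.4 and 121 CPM at P5 and 143 and 143 CPM at P15 (0.21 ± 0.05), and *Dnmt3b* did not pass the test, with 389.7 and 402 CPM at P5 and 372 and 365 CPM at P15. *Foxd3* (1.56 ± 0.10) and the kinase gene *Pim2* (0.99 ± 0.05) rose. *Otx2*, a factor of the early epiblast that is later confined to the head, was at 162 and 163 CPM at P5 and 78.6 and 79.2 CPM at P15 (-1.08 ± 0.06).

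Of 25 neural and ectodermal genes, 9 fell and 8 rose, 6 and 2 of them at least 2-fold (median -0.02), where DESeq2 called 4 and 1. Shares over all genes tested were 22.8% fallen and 24.3% risen, and 8.41% and 3.18% at least 2-fold. The 6 lower genes, described here after their values were seen, were all factors of the anterior neural plate and eye field or of forebrain. *Hesx1*, needed for the forebrain, was at 20.7 and 18.7 CPM at P5 and 3.96 and 4.204 CPM at P15 (-2.30 ± 0.14). *Six3*, which marks the most anterior plate, was at 10.5 and 11.8 CPM at P5 and 2.24 and 2.73 CPM at P15 (-2.19 ± 0.18). *Rax* (-2.08 ± 0.39), *Otx1* (-2.36 ± 0.47), *Lhx5* (-1.75 ± 0.46) and *Six6* (-1.36 ± 0.39) fell from lower levels, between 1.44 and 2.14 CPM at P5. MEFs had at most 0.128 CPM of any of the 6. The members that rose included *Zic1* (0.94 ± 0.14), *Ncam1* (0.69 ± 0.07) and *Fabp7* (2.21 ± 0.22), of which the first 2 were higher in MEFs than at P15. *Sox1*, the marker of the neural plate, did not pass the test.

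Of 25 primitive streak, mesoderm and endoderm genes, 12 rose and 7 fell, with 4 at least 2-fold higher and 3 lower (median 0.23), and with the median feeder share taken off 6 of 23 were higher. The shares of all genes tested were 24.3% risen and 22.8% fallen, with 3.18% at least 2-fold higher and 8.41% lower. *Wnt3*, the ligand that starts the streak, was at 5.62 and 2.94 CPM at P5 and 28.3 and 26.6 CPM at P15 (2.63 ± 0.15). *Fgf8*, which guides cells out of the streak, was at 26.8 and 25.3 CPM at P5 and 105 and 89.8 CPM at P15 (1.87 ± 0.08). *Mixl1* (1.95 ± 0.18) and *Nkx1-2* (3.22 ± 0.41) also rose at least 2-fold, to means of 9.96 and 3.06 CPM. *Gsc* (0.94 ± 0.10), *Foxa2* (0.83 ± 0.06) and *Eomes* (0.47 ± 0.08) rose by less, and *T* (brachyury) was at 99.3 and 96.6 CPM at P5 and 117 and 117 CPM at P15 (0.23 ± 0.06). These streak genes were at or under 0.595 CPM in MEFs. Among the 7 that fell, *Gata4* was at 35.2 and 36.1 CPM at P5 and 5.91 and 7.78 CPM at P15 (-2.41 ± 0.11), the endoderm factor *Sox17* at 29.2 and 28.3 CPM at P5 and 17.6 and 14.997 CPM at P15 (-0.85 ± 0.10), and the mesoderm receptor *Aplnr* at 32.4 and 35.6 CPM at P5 and 15.3 and 14.997 CPM at P15 (-1.19 ± 0.09). Of 20 extraembryonic genes, 8 fell and 6 rose, 5 and 1 of them at least 2-fold, against 8.41% and 3.18% of all genes at 2-fold. Those that fell included *Spink1* (-2.03 ± 0.12), *Lama1* (-1.86 ± 0.11), *Gata3* (-1.85 ± 0.21) and *Hand1* (-2.71 ± 0.53).

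In the Nodal pathway, ligands, the coreceptor and an inhibitor of the ligand were among the genes that rose most. Of 22 genes, 9 rose and 9 fell, and 5 were at least 2-fold higher and none lower (median -0.07). In all genes tested 24.3% rose and 22.8% fell, with 3.18% at least 2-fold higher and 8.41% lower. *Lefty1*, a secreted Nodal inhibitor, was at 193 and 205 CPM at P5 and 877 and 845 CPM at P15 (2.08 ± 0.05, adjusted p = 1.7e-22). *Gdf3*, a ligand of the same family, was at 7.65 and 8.26 CPM at P5 and 37.9 and 36.8 CPM at P15 (2.20 ± 0.10). *Nodal* itself was at 32.1 and 28.6 CPM at P5 and 61.1 and 63.8 CPM at P15 (1.01 ± 0.07). The inhibitory Smad gene *Smad7* (1.08 ± 0.07) and *Tdgf1* were the others that reached 2-fold. *Lefty2*, the paralogue of *Lefty1*, was lower, with 327 and 323 CPM at P5 and 277 and 289 CPM at P15 (-0.23 ± 0.05), and *Cer1* differed little, with 209 and 209.7 CPM at P5 and 238 and 237 CPM at P15 (0.15 ± 0.05) and -0.036 with the naïve share taken off. The activin receptor genes *Acvr2b* (-0.73 ± 0.10) and *Acvr1b* (-0.27 ± 0.07) fell by less than 2-fold.

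In the FGF pathway, of 22 genes 9 rose and 5 fell, 2 and 4 of them at least 2-fold. Over all genes 24.3% rose and 22.8% fell, so that the share that fell was near that of all genes and the share that rose was above it. At 2-fold, 3.18% of all genes were higher and 8.41% lower, both below the shares of this list. The 2 that rose at least 2-fold were *Fgf8*, described above, and the ERK target *Egr1* (1.54 ± 0.05). *Fgf4*, a ligand made by naïve cells, was at 39.9 and 43.8 CPM at P5 and 3.33 and 3.98 CPM at P15 (-3.54 ± 0.12), *Fgfr2* at 44.4 and 40.9 CPM at P5 and 15.7 and 13.9 CPM at P15 (-1.56 ± 0.09) and *Fgfr3* at 18.5 and 15.6 CPM at P5 and 5.85 and 7.44 CPM at P15 (-1.39 ± 0.14). The ERK phosphatase gene *Dusp4* fell (-1.17 ± 0.06), whereas *Dusp6* and *Spry4* did not pass the test. Among 37 Wnt genes, 11 rose and 12 fell, 4 and 5 of them at least 2-fold. Beside *Wnt8a* and *Wnt3*, the receptor gene *Fzd10* was at 7.703 and 7.04 CPM at P5 and 31.8 and 26.4 CPM at P15 (1.95 ± 0.12). The Wnt antagonists *Sfrp5* (-2.93 ± 0.13) and *Dkk1* (-1.16 ± 0.09), the negative regulator *Rnf43* (-2.34 ± 0.28), the ligand *Wnt10b* (-3.22 ± 0.31) and the receptor gene *Fzd5* (-1.21 ± 0.06) fell at least 2-fold. With the median feeder share taken off, 6 of 34 Wnt genes were at least 2-fold higher and 9 lower. *Axin2*, a common readout of Wnt activity, did not pass the test. Of 27 BMP genes, 5 rose and 8 fell, with the antagonist *Chrd* (1.15 ± 0.07) higher and the BMP target *Id1* (-1.09 ± 0.08) lower, near the 24.3% and 22.8% of all genes that rose and fell.

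Interferon-stimulated genes rose, with no member lower. Of 35 such genes, which respond to virus and to interferon, 28 rose, 10 of them at least 2-fold, and the median was 0.86. *Isg15*, a ubiquitin-like modifier, was at 57.3 and 60.8 CPM at P5 and 228 and 236 CPM at P15 (1.94 ± 0.06, adjusted p = 1.4e-20). *Gbp3*, a GTPase of cell defence, was at 29.3 and 29.01 CPM at P5 and 84.8 and 90.9 CPM at P15 (1.56 ± 0.07). *Bst2* (tetherin), which holds viruses on the cell surface, was at 338 and 331 CPM at P5 and 697 and 688 CPM at P15 (1.02 ± 0.05). *Ifitm3*, which blocks virus entry, was at 408 and 412 CPM at P5 and 859 and 832 CPM at P15 (1.01 ± 0.05). *Ifit1* (1.15 ± 0.07) and *Ifit3* (1.19 ± 0.06), which bind viral RNA, and the transcription factor *Irf7* (1.05 ± 0.06) rose as well. In MEFs 33 of the 35 were below every primed library, and with the median feeder share taken off 17 were at least 2-fold higher.

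In naïve cells the same list went down, with 27 of 34 genes lower at P15 (19 at least 2-fold) and none higher. *Isg15* was at 33.4 ± 1.601 CPM in naïve cells at P5 and 7.09 ± 0.804 CPM at P15 (SD, n = 2). The difference between the passage effects in primed and in naïve cells, tested in 1 fit of the 8 libraries, was at least 2-fold and past the threshold for 27 of the 35 genes. The background of this test was 2.36% of all genes in the same direction. For *Isg15* it was 4.19 ± 0.11 (adjusted p = 1.7e-23). When the naïve share was taken off, 5 of the 35 were at least 2-fold higher at P15 (median 0.70).

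The interferon-stimulated response element, searched as GAAA followed after any 2 bases by another GAAA on either strand, was in 13 of 28 promoters of this list (46.4%), against 3.99% of all promoters and 6.98% of the promoters of genes at least 2-fold higher. The windows of *Isg15* (chr4:156200769-156201068, minus strand) and *Ifit3* (chr19:34583279-34583578, plus strand) are given with the matches in capitals, as examples with 3 overlapping matches in the former and 2 separate ones in the latter.
Isg15: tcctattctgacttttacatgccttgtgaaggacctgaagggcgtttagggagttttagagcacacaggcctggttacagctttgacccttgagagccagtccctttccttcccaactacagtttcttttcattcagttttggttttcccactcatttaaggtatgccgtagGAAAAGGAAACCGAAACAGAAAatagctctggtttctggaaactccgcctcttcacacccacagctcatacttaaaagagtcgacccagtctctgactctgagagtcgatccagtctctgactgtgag
Ifit3: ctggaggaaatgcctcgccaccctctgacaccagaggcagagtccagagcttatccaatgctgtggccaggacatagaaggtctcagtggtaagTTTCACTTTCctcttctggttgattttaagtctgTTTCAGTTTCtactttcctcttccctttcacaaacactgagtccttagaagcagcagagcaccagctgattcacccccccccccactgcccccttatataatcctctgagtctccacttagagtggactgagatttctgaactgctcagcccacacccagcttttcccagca

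Every gene of the cholesterol list rose. All 24 genes of synthesis and uptake were higher at P15, 15 of them at least 2-fold, with a median of 1.11. *Nsdhl*, a sterol dehydrogenase, was at 29.4 and 27.4 CPM at P5 and 86.7 and 89.2 CPM at P15 (1.60 ± 0.07, adjusted p = 6.5e-17). *Idi1*, the isopentenyl diphosphate isomerase, was at 103 and 101 CPM at P5 and 239.6 and 256 CPM at P15 (1.26 ± 0.05). *Cyp51*, which demethylates lanosterol, was at 117 and 118 CPM at P5 and 275 and 284 CPM at P15 (1.22 ± 0.05). *Hmgcs1*, which feeds the mevalonate path, was at 258 and 270.2 CPM at P5 and 579.9 and 596 CPM at P15 (1.12 ± 0.05). *Srebf2* (0.19 ± 0.05), which encodes the transcription factor of this pathway, rose by less than 2-fold. MEFs expressed these genes too, with a summed level of 3324 CPM against 2203 to 2240 CPM at P5 and 4259 to 4334 CPM at P15, so that the P15 sum was above that of both MEFs and naïve cells (2175 to 2367 CPM). With the median feeder share taken off, 19 were at least 2-fold higher. In naïve cells 2 of the 24 genes fell and none rose, and the difference between primed and naïve cells passed at 2-fold for 15.

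A CCAAT box (ATTGG on the other strand), which NF-Y binds beside SREBP in sterol genes, was in all 16 promoters of the list, against 41.1% of all promoters. It was in 42.9% of the promoters of the genes tested and in 38.1% of those of genes at least 2-fold higher. It is a short motif, and the windows of *Idi1* (chr13:8885356-8885655, plus strand) and *Nsdhl* (chrX:72918271-72918570, plus strand) are printed with it in capitals.
Idi1: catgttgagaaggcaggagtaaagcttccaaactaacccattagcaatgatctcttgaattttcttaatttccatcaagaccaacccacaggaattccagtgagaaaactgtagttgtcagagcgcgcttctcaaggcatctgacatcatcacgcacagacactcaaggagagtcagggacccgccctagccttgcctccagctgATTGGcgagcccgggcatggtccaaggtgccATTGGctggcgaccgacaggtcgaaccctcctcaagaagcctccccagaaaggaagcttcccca
Nsdhl: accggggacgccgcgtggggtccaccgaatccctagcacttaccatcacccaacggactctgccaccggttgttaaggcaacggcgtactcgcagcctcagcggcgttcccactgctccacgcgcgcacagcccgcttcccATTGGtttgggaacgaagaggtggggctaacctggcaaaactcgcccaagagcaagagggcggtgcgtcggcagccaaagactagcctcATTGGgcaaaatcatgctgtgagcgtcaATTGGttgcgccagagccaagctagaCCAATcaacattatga

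Of 21 immediate early genes, which are switched on within minutes by growth factors or stress, 11 rose and 5 fell, with 4 at least 2-fold higher and none lower (median 0.29). Among all genes tested, 24.3% rose and 22.8% fell, with 3.18% at least 2-fold higher and 8.41% lower. After *Fos* and *Fosb* came *Egr1*, at 132 and 135 CPM at P5 and 394 and 396 CPM at P15 (1.54 ± 0.05), and *Ier2*, at 86.6 and 82.03 CPM at P5 and 198 and 190.5 CPM at P15 (1.17 ± 0.06). The other AP-1 genes *Jun* (0.90 ± 0.05), *Junb* (0.90 ± 0.05) and *Jund* (0.98 ± 0.06) rose by less than 2-fold. *Nr4a1* (-0.69 ± 0.08), *Egr3* (-0.65 ± 0.15) and *Klf6* (-0.36 ± 0.05) fell, so that the group did not move as one. Naïve cells had far more of these transcripts than primed cells, with a summed level of 7770 to 7860 CPM at P5 and 4841 to 4930 CPM at P15, against 1563 to 1569 and 2571 to 2600 CPM in primed cells. *Fos* itself was at 859.6 ± 25.1 CPM in naïve cells at P5 and 516 ± 21.4 CPM at P15, and the difference of its passage effect was 4.83 ± 0.08 (adjusted p = 1.5e-29). With the naïve share taken off, 12 of the 21 were at least 2-fold higher. That share was set by other markers and exceeded the P5 levels of *Fos* and *Fosb*. For such genes a rise follows from the subtraction itself, so that this count does not test a rise. The cyclic AMP response element TGACGTCA was in 3 of 16 promoters of the list. It was in 2.03% of all promoters and in 3.5% of those of the genes tested.

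Genes of the extracellular matrix rose along with the fibroblast markers. Of 36 matrix genes, 27 rose and 7 fell, 14 and 2 of them at least 2-fold (median 0.65). With the median feeder share taken off, 23 of these genes were still tested, 6 of them at least 2-fold higher and 3 lower. This share exceeded the primed level of genes such as *Col1a1*, which then dropped out of the test. With the lowest ratio as the feeder share, 13 were at least 2-fold higher and 2 lower (median 0.67). *Col3a1* was at 357 and 349 CPM at P5 and 2016 and 2032 CPM at P15 (2.49 ± 0.05), *Col1a1* at 776 and 752 CPM at P5 and 2775 and 2532 CPM at P15 (1.77 ± 0.05) and *Lum* at 89.5 and 86.03 CPM at P5 and 299 and 323 CPM at P15 (1.79 ± 0.05). Their MEF levels were 7962 CPM, 26126 CPM and 148 CPM, so that *Lum* exceeded its MEF level at P15 and the collagens did not. Of the fibroblast markers, the periostin gene *Postn* (1.77 ± 0.05) and *Thy1* (1.495 ± 0.06) rose, whereas *Acta2* (-1.03 ± 0.05) and *Cnn1* (-0.97 ± 0.08), both of the contractile apparatus, fell. Only 7 matrix genes were lower in MEFs than in every primed library, of which 1 was at least 2-fold higher and 1 lower. The laminin gene *Lama5* fell, with 533 and 521 CPM at P5 and 344 and 319 CPM at P15 (-0.70 ± 0.05). Of 24 chemokine and acute phase genes, 11 rose and 9 fell, 5 and 3 of them at least 2-fold. In all genes tested 24.3% rose and 22.8% fell, 3.18% and 8.41% at least 2-fold. *Cxcl5* was at 11.9 and 10.4 CPM at P5 and 43.04 and 46.9 CPM at P15 (1.98 ± 0.10) and the haptoglobin gene *Hp* at 2.73 and 2.11 CPM at P5 and 15.1 and 14.5 CPM at P15 (2.57 ± 0.17), both above their MEF levels of 1.87 and 6.29 CPM, and *Ptgs2* at 291 and 299 CPM at P5 and 138 and 147 CPM at P15 (-1.08 ± 0.05). The lymphoid factor gene *Ikzf1* rose as well, with 5.52 and 4.94 CPM at P5 and 27.4 and 27.9 CPM at P15 (2.37 ± 0.12) and 1.91 CPM in MEFs.

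Of 32 glycolysis and hypoxia genes, 11 rose and 9 fell, and the 3 that moved at least 2-fold were lower, a share close to the 8.41% of all genes. *Slc2a1*, the glucose transporter Glut1, was at 1363 and 1316 CPM at P5 and 648 and 616 CPM at P15 (-1.11 ± 0.05), the lactate transporter gene *Slc16a1* at 434 and 429 CPM at P5 and 215 and 220.2 CPM at P15 (-1.02 ± 0.05) and *Ldhb* at 151 and 137 CPM at P5 and 60.9 and 59.1 CPM at P15 (-1.30 ± 0.06). Enzymes of the lower pathway such as *Gapdh* (0.32 ± 0.04) and *Ldha* (0.30 ± 0.04) rose slightly. Of the 13 mitochondrially encoded genes, 12 rose, none at least 2-fold (median 0.42), with *mt-Cytb* at 1277 and 1372 CPM at P5 and 2169.7 and 2419.8 CPM at P15 (0.76 ± 0.05). In naïve cells all 13 rose from P5 to P15 (median 0.75). Of 43 ribosomal protein genes, 33 rose and none fell, with a median of 0.19 that was 0.06 with library size as the scale. Of 23 genes of the ATF4 amino acid response, 14 rose and 3 fell, with *Cth* (1.23 ± 0.09), *Nupr1* (1.09 ± 0.10) and *Chac1* (1.77 ± 0.14) at least 2-fold higher. This count was 8 once the naïve share was taken off, with a median of 0.74 instead of 0.32. With the median feeder share taken off, 2 of 21 were at least 2-fold higher and 4 lower (median 0.14). In MEFs 18 of the 23 were above every primed library, among them *Chac1* (72.9 CPM) and *Nupr1* (51.5 CPM). The cystine transporter gene *Slc7a11* was at 75.4 and 82.4 CPM at P5 and 16.5 and 14.997 CPM at P15 (-2.36 ± 0.08), and *Gdf15* also fell (-1.57 ± 0.13). Of 23 antioxidant genes, 8 rose and 9 fell, and the only 2-fold change was that of *Nqo1* (-1.10 ± 0.09). For this list and the ATF4 list, the shares over all genes were 24.3% risen and 22.8% fallen. At least 2-fold higher were 3.18% of all genes, and 8.41% were lower.

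Targets of p53 were lower while its own transcript was higher. Of 28 genes of this list, 16 fell and 3 rose, 2 of them at least 2-fold lower (median -0.23). Over all genes 22.8% fell and 8.41% did so at least 2-fold, so that only the former share was exceeded. *Trp53* was at 173 and 178 CPM at P5 and 286 and 275 CPM at P15 (0.64 ± 0.05), and *Mdm2*, its target and inhibitor, at 393 and 402 CPM at P5 and 208 and 216 CPM at P15 (-0.94 ± 0.05). *Trp53inp1* (-0.94 ± 0.05), *Zfp365* (-1.04 ± 0.08) and, by a small amount, the cell cycle inhibitor gene *Cdkn1a* (-0.20 ± 0.05) fell. In naïve cells 12 of the 28 fell from P5 to P15 and none rose. Of 33 cell cycle genes, 19 rose and 5 fell (24.3% and 22.8% over all genes), and none of these reached 2-fold (median 0.25). The largest of these rises was that of cyclin D1, *Ccnd1*, at 189 and 184 CPM at P5 and 347 and 337 CPM at P15 (0.85 ± 0.05), and *Cdk4* was at 359.7 and 361 CPM at P5 and 544 and 538 CPM at P15 (0.55 ± 0.05). *Mki67* and *Cdk1* did not pass the test.

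Genes of homologous recombination and telomere upkeep, the pathway the study was concerned with, changed little with passage in primed cells. Over all genes 24.3% rose, 22.8% fell and 8.41% were at least 2-fold lower. Of the 37 genes of this list, 7 rose and 10 fell, 1 of them at least 2-fold lower, and the median was -0.10. That gene was the meiotic recombinase *Dmc1*, with 4.62 and 5.38 CPM at P5 and 0.918 and 0.738 CPM at P15 (-2.61 ± 0.28). *Rif1*, a telomere-binding regulator of replication and repair, was at 184 and 185 CPM at P5 and 127 and 128 CPM at P15 (-0.56 ± 0.05), the telomerase gene *Tert* at 16.1 and 14.4 CPM at P5 and 11.9 and 10.6 CPM at P15 (-0.47 ± 0.12) and the helicase gene *Rtel1* at 26.6 and 23.9 CPM at P5 and 38.96 and 34.8 CPM at P15 (0.51 ± 0.09). *Brca1* did not pass the test. Of 30 genes of DNA methylation and retroelement silencing, 5 rose and 12 fell, with *Dnmt3l* and *Tex19.1* (-2.33 ± 0.27) at least 2-fold lower. These 2 were a share near the 8.41% of all genes, whereas the share that fell was above the 22.8% of all genes. *Tex19.1* was also among the naïve markers that set the naïve share. *Trim28* (Kap1) was at 672 and 658 CPM at P5 and 972 and 895 CPM at P15 (0.46 ± 0.05) and *Tet1* at 95.5 and 93.96 CPM at P5 and 51.7 and 62.8 CPM at P15 (-0.76 ± 0.07), whose change was 0.23 with the naïve share taken off. Among the 2-cell embryo genes only 5 had enough counts to be tested, of which *Dppa2*, *Dppa4* and *Arg2* (-2.92 ± 0.39) fell.

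Of 38 imprinted genes, expressed from 1 parental allele, 13 rose and 10 fell, with *Plagl1* (1.17 ± 0.09) at least 2-fold higher and *Gab1* (-1.65 ± 0.07) and *Kcnq1ot1* (-2.35 ± 0.26) lower. The share that fell was near that of all genes tested (22.8%), and the share that rose was above it (24.3%). With the median feeder share taken off, 2 of 32 were at least 2-fold higher and 10 lower, against 584 and 1588 of 15118 genes in all. *Plagl1* was at 393 CPM in MEFs, far above its P15 level. *Kcnq1ot1* is antisense to *Kcnq1*, and without knowledge of strand in the counting its reads cannot be told from that gene's. *Xist*, the RNA that coats an inactive X chromosome, was at 40.6 and 42.7 CPM at P5 and 15.5 and 18.1 CPM at P15 (-1.34 ± 0.09), and at 189.5 CPM in MEFs. Of 29 Hox genes 4 rose, a smaller share than the 24.3% of all genes, and none fell. DESeq2 called none of them at 2-fold. The 4, *Hoxb8*, *Hoxc5*, *Hoxc6* and *Hoxc8*, were all higher in MEFs than at P15.

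No chromosome moved as a whole. The medians of the 20 nuclear chromosomes lay between -0.07 (chromosome 14) and 0.07 (chromosome 19), where 1 additional copy in every cell would give 0.58. The share of genes at least 2-fold lower was between 6.13% and 12.5% per chromosome. Runs of at least 4 neighbouring tested genes that changed at least 2-fold in 1 direction were found at 11 places, 9 lower and 2 higher, and held 49 genes. Keratin clusters formed 2 of them, *Krt20*, *Krt19*, *Krt17* and *Krt42* on chromosome 11 (99428403 to 100269871, GRCm38) and a run with *Krt80* and *Krt7* on chromosome 15 (101322888 to 101562950). The X-linked *Rhox5*, *Rhox6* and *Rhox9* formed another with the predicted gene *Gm9*, at 37209348 to 37901770. The 3 Rhox genes changed by -3.89, -4.35 and -5.61, and *Gm9* had no count at P15. The 2 higher runs were *Ppp4r4* with *Serpina3f*, *Serpina3g*, *Serpina3h* and *Serpina3i* on chromosome 12 (median 2.07) and *Pcdhb17* to *Pcdhb20* on chromosome 18 (median 1.34). Members of these gene families, and 8 near-identical predicted genes on chromosome 14, can share reads, so that the values of single members are uncertain.

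The median number of CpG dinucleotides was 21 per promoter window of 300 bases over the 11550 tested genes with a promoter in the RefSeq table, 11 for the 344 of them at least 2-fold higher and 14 for the 886 lower. The interferon promoters (median 7.5) were low in CpG, and those of germline genes (20) and cholesterol genes (24.5) were close to the median of all.

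More genes changed at least 2-fold with passage in primed cells than in naïve cells over the same passages. In naïve cells 178 of 15683 genes (1.13%) changed at least 2-fold, 65 higher (0.414%) and 113 lower (0.721%). The difference between both effects was at least 2-fold and past the threshold for 1213 of 16926 genes (7.17%), with the primed change above the naïve one for 400 (2.36%) and below it for 813 (4.8%). The largest differences in the lower direction were those of *Rbmxl2*, *Arl14epl*, *Cyct*, *Triml1*, *Sohlh2* and *Cdcp1*. All but *Cdcp1* had no count in either primed P15 library, and *Arl14epl* and the testis cytochrome gene *Cyct* were at least 28.3-fold and 24.3-fold lower at P15 in primed cells. *Rbmxl2* was at 106 ± 1.17 CPM in naïve cells at P5 and 112 ± 0.118 CPM at P15, so that in naïve cells it was kept. In the other direction stood *Fosb*, *Chgb*, *Fos*, *Ednrb*, *Isg15* and *Ifit1*. *Fosb* was at 1297 ± 7.81 CPM in naïve cells at P5 and 645 ± 14.9 CPM at P15, and the difference was 6.04 ± 0.09 (adjusted p = 7.8e-30). For *Chgb*, at 0.845 and 0.998 CPM at P5 and 18.3 and 22.1 CPM at P15 in primed cells, it was 5.33 ± 0.98 (adjusted p = 6.7e-05), a size that rests on naïve levels near the floor of 3 counts, with means of 0.198 CPM at P5 and 0.101 CPM at P15. *Ifit1* was at 23.4 ± 2.26 CPM and 2.902 ± 0.146 CPM in naïve cells, and rose in primed cells, with 40.9 and 39.9 CPM at P5 and 86.6 and 96.8 CPM at P15, with a difference of 4.16 ± 0.16 (adjusted p = 1.4e-19).

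**Figure D5:**
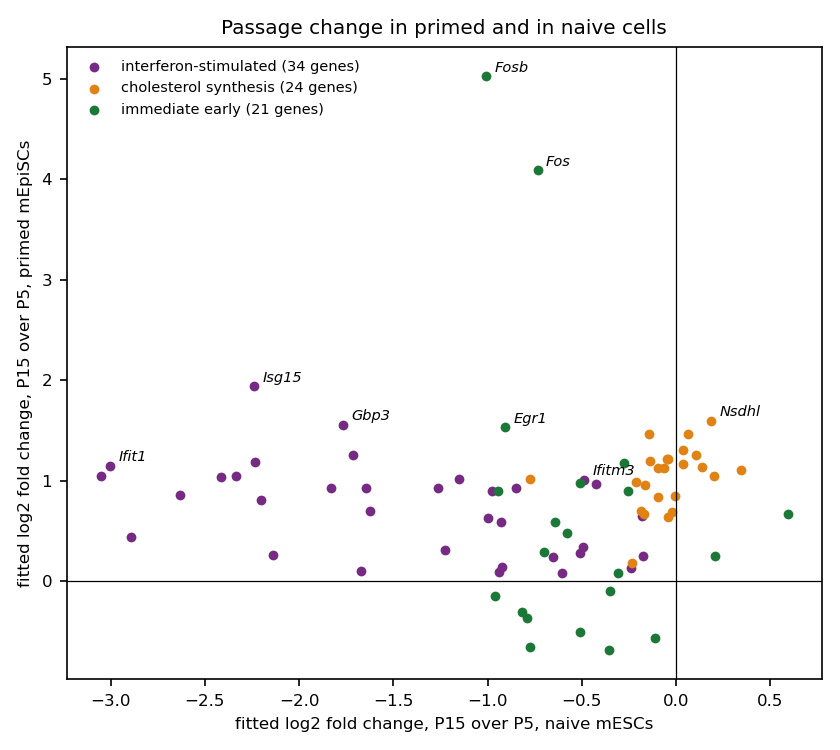
Log2 fold change of P15 over P5 in primed cells (y axis) against that in naïve cells (x axis) for the interferon-stimulated (34 genes tested in both), cholesterol (24) and immediate early (21) genes, 1 point per gene. The interferon-stimulated genes lie above 0 on the primed axis and below 0 on the naïve axis, and the cholesterol genes lie above 0 on the primed axis, with medians of 1.11 in primed and -0.05 in naïve cells.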

How the data were processed

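Per the submitters' notes and the study's methods, reads of poly(A) RNA-seq libraries were trimmed with cutadapt and aligned to mm10 with HISAT2, and counted per gene with featureCounts. The annotation release, the strand setting and the treatment of reads with several matches are not given in the sources used here. The deposited values are raw read counts per gene that the authors had not normalised, and 92 spike-in entries with 0 counts in total were left out. Symbols were matched by GENCODE M21 for 54079 of 54232 gene identifiers. The libraries were grouped by their titles, and 0 columns of other series were present.

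A gene entered a fit when 2 or more of its libraries held 10 counts or more. With TMM factors, the quasi-likelihood test of edgeR was applied (R 4.3.3, edgeR 4.0.16, limma 3.58.1), with Benjamini-Hochberg adjustment over all genes tested, and genes were called at an adjusted p under 0.01 and a change of at least 2-fold. The 4 primed libraries, the 4 naïve libraries and the interaction over all 8 were each fitted once. The libraries of a pair differed by more than counting error, with a chi-square of their counts per gene of 2.07 at P5 and 3.26 at P15. Such a spread can be technical, so that it does not show whether the cultures were separate. Total counts of 15918658 to 17775081 set the floor of 3 counts. The fit was tested on simulated data.

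The 31 gene lists were written by hand, and lists, members and tests were chosen with earlier results of these data known. Named were the 12 genes with the largest change in each direction among called genes with at least 10 CPM and no overlap, predicted gene models aside; up to 4 members of each list with the smallest adjusted p, or the 2 most expressed where none was called; the 6 largest interactions in each direction; and runs of at least 4 neighbours. The choice of any other gene followed from its values, and a few genes are not reported here. To find the naïve share, the level of 17 naïve markers was divided by their mean naïve level and the median taken per library, and the feeder share the median or lowest ratio of fibroblast markers to MEFs. The accordingly scaled naïve or MEF counts were subtracted and the fit repeated. Promoters of 300 bases are those of RefSeq (GRCm38.p6). Alternatives used DESeq2 1.42.0, other scalings, no filter, a replicate block and the omission of each library. Tables and plots were made with pandas 2.3.3, scipy 1.17.1 and matplotlib 3.10.9.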

Additional observations from a re-analysis of the deposited data

Results flagged for a closer look

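The passage effect differed between primed and naïve cells for 1213 genes by edgeR's test of the interaction (Benjamini-Hochberg adjusted p under 0.01, at least 2-fold), which is what sets the following genes apart. All values are log2 differences, the change in primed cells less the change in naïve cells. The primed change was below the naïve one for *Rbmxl2* (-10.66), *Arl14epl* (-9.72), *Cyct* (-9.25), *Triml1* (-8.75), *Sohlh2* (-8.32) and *Cdcp1* (-8.09). Since the first 5 had no count in primed cells at P15, their fitted values depend on the prior count and are no bounds. *Triml1* and *Sohlh2*, a germ cell transcription factor, were at least 16.7-fold and 16.1-fold lower at P15 in primed cells, against a floor of 3 counts per library.

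The primed change was above the naïve one for the AP-1 genes *Fosb* (6.04) and *Fos* (4.83), for *Chgb* (5.33, with naïve levels near the floor) and for *Ednrb* (4.65). *Ednrb* was low in naïve cells too, with means of 0.819 CPM at P5 and 0.285 CPM at P15. Its naïve change of -1.55 did not pass the test, so that the size of this difference is uncertain. Interferon-stimulated genes made up the rest of the genes picked out, with *Isg15* at 4.19, *Ifit1* at 4.16, *Ifit3* at 3.43, *Irf7* at 3.39, *Gbp3* at 3.34, *Bst2* at 2.18 and *Ifitm3* at 1.51. The latter genes were lower at P15 than at P5 in naïve cells and higher in primed cells.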

How the results depend on the processing

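Of 1850 genes called in primed cells, 1364 were also called by DESeq2, which called 1372 in all (400 higher, 972 lower). Other scalings, no filter, a fit of 8 libraries and either feeder share gave 1756 to 2172 genes. Taking off the naïve share left 1864 genes called, 1598 of them shared. Restricting the test to fewer genes gave fewer calls by construction, with 900 (198 higher, 702 lower) among the 6805 genes below every primed library in MEFs and, in a choice made after seeing the data, 1081 (707 lower) among the 8481 genes with a higher mean in primed than in naïve cells. Leaving out each library in turn gave 1338 to 1746 genes, 424 to 463 higher and 885 to 1294 lower, where the lone library of an arm was assumed to vary like the other arm. The lower counts, 885 and 886, were those without P5 replicate 1 and without P5 replicate 2, when genes with counts at P5 alone could not pass the filter and 15181 and 15200 genes were tested. The median of the 2-cell embryo list then turned from negative to 0.07 and 0.03. The deviations of same-numbered libraries were weakly correlated (r = 0.0992 over 15957 genes), which does not show whether the replicate numbers pair the libraries. A replicate block gave 1921 genes in primed cells. The interaction was called for 1006 to 1337 genes under all alternatives, the replicate block (1165) included. In naïve cells 43 genes instead of 65 were called higher without the filter. Of 200 named genes, 194 passed the p-value threshold, and 17 of them lost it under at least 1 alternative. A total of 6 changed sign. With the naïve share taken off, *Cer1* was at -0.036, *Sox2* at 0.12, *Tet1* at 0.23 and *Klf2* at 11.17, the last because its P5 counts fell to 0. *Dnmt3b* was at 0.046 with the median feeder share taken off and *Rpl4* at -0.0081 with library size alone. The cause of the other changes was not tested. The naïve share rests on markers whose single ratios ranged widely, and with 2 libraries a group the spread is estimated from few samples.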
